A study of Mus musculus with 20 samples.

Results

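The 44 genes described here encode lysosomal enzymes, lysosomal membrane proteins, subunits of the lysosomal proton pump and 2 transcription factors of lysosomal genes. They were taken by symbol from a named list, each through its brightest probe, and all 44 were among the 21154 genes that the array probes could be assigned to. Their roles are 12 proteases, 12 glycosidases and sulfatases, 5 proteins of lipid breakdown and cholesterol export, 2 acid phosphatases, 7 membrane proteins, 4 proton pump subunits and 2 transcription factors. All 44 were well above background on all 20 arrays, so that none of their differences is a bound. A further 72 lysosomal genes on the array were counted beside them.

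Lysosomes are acidic organelles that take apart proteins, glycans, lipids and engulfed material, and the vacuolar proton pump keeps their lumen acidic. Most soluble lysosomal enzymes are made as precursors, receive a mannose 6-phosphate tag in the Golgi and are activated in the acid. TFEB and MITF belong to one family of transcription factors that bind short E-box sequences upstream of many lysosomal genes. Phagocytes are rich in lysosomes, and macrophages of fat tissue take up lipid from adipocytes and break it down there.

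Male C57BL/6J mice, 5 weeks old at the start, were kept for 13 weeks on 1 of 4 diets. HFD+PP was a high-fat diet with 2% (w/w) porphyran, a polysaccharide of the red alga nori, and HFD+Ex was the same diet with 2% (w/w) nori extract. HFD, with 60% of energy from fat, had no supplement, and CD was the control diet with 10% of energy from fat. Colon, ileum, liver, brown fat and mesenteric white fat were each pooled over the 7 mice of a diet and hybridised to 1 single-colour array, which gave 20 arrays. A diet comparison within a tissue therefore sets 1 array against 1 array, has no replicate and no test, and leaves out the spread between mice. Levels are log2 of the processed signal minus the array's 75th percentile, so that 0 is the 75th percentile, and a gene is said to rise or fall past a log2 difference of 1, which is 2-fold. Levels of different genes come from different probes and are not set against each other.

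On each array 50.7% to 67.9% of spots passed the scanner's test against background, and saturation was not seen. Spots of 1 probe on the same array differed with a median SD of 0.058, which for spots alone gives an SD of 0.082 for a difference between arrays. It leaves out labelling, hybridisation and the spread between mice. The arrays lay on 4 slides. The mesenteric fat arrays of HFD and CD shared a slide with liver, and those of HFD+PP and HFD+Ex lay on another. HFD+Ex brown fat also lay apart from the other brown fat arrays. In those 3 comparisons slide and diet cannot be told apart, while the remaining 12 were made within a slide. Markers of each labelled tissue were abundant there: summed levels (linear, with the 75th percentile as 1) of 8 hepatocyte markers were 6893 to 7427 in liver, those of 5 brown adipocyte markers were 2140 to 2614 in brown fat, and those of 8 intestinal epithelium markers 1480 to 2027 in ileum and 647 to 785 in colon. Those of 5 white adipocyte markers were 752 to 1062 in mesenteric fat and 639 to 910 in brown fat, ranges that overlap. The mesenteric fat arrays differed in other tissues' markers. All 9 exocrine pancreas markers were well above background on all 4, with summed levels of 1733 on HFD+PP, 486 on HFD+Ex, 16.3 on HFD and 1019 on CD. Summed levels of 8 B cell markers were 65.9, 64.5, 10.0 and 122 in the same order.

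Upstream sequences were available for 38 of the members in the RefSeq promoter windows (GRCm38.p6), which hold the 250 bases before and the first 50 bases after a gene start. CACGTG, the E-box, was in the window of 12 of the 38 genes (31.6%), beside 15 of 56 other lysosomal genes (26.8%) and 2187 of 27025 genes of the whole table (8.09%). The longer TCACGTGA, which contains the E-box and is the core of the element that TFEB binds, was in 5 of the 38 (13.2%), 9 of the 56 (16.1%) and 304 of the 27025 (1.12%). Both motifs equal their own reverse complement, so 1 strand covers both. The longer motif's 5 windows are printed here because TFEB is itself a member. Each line gives 40 bases on the gene's strand with 1 copy of the motif in capitals.
Atp6v1a (chr16:44139368-44139407, minus strand): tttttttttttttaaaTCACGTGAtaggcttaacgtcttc
Ctsa (chr2:164833744-164833783, plus strand): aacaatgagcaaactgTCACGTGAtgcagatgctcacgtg
Ctsd (chr7:142387903-142387942, minus strand): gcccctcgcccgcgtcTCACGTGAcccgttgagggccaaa
Gla (chrX:134601210-134601249, minus strand): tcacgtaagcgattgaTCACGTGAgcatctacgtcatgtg
Mcoln1 (chr8:3500457-3500496, plus strand): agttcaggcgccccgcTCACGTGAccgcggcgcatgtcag
The motif shown begins 132 bases before the start in Atp6v1a, 13 in Ctsa, 99 in Ctsd, 228 in Gla and 46 in Mcoln1. The windows of Ctsa and Gla hold 2 copies each. The other members with CACGTG were Arsa, Ctsf, Ctsl, Glb1, Lamp1, Lgmn and Naglu, and Lamp1 had 4 copies. Of the 17 members past 2-fold in some diet comparison, 15 had a window and 3 of them CACGTG (Ctsl, Lgmn and Atp6v1a). Of the 27 members past 2-fold in none, 23 had a window and 9 of them CACGTG. A match describes these letters in these windows, not a bound site. Ctsb, Ctsh, Galns, Npc1, Atp6v1h and Atp6v1b2 had no window in the table.

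Most of the 44 lysosomal transcripts were higher on the HFD than on the CD array of mesenteric white fat. On HFD against CD, 13 of the 44 members rose past 2-fold there and none fell, beside 9.49% of 16357 measured genes that rose and 8.23% that fell. The median log2 difference of the 44 was 0.76, against 0.14 over all genes measured, and 38 of the 44 lay above 0. The 13 were spread over the roles: 4 of 12 proteases, 3 of 12 glycosidases and sulfatases, 1 of 5 proteins of lipid breakdown, 1 of 7 membrane proteins, 3 of 4 proton pump subunits and 1 of the 2 transcription factors. Neither acid phosphatase was among them. These 2 arrays also differed in summed pancreas markers, 16.3 on HFD and 1019 on CD, and B cell markers, 10.0 and 122. Diet and such differences between the arrays cannot be told apart.

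**Figure D1:**
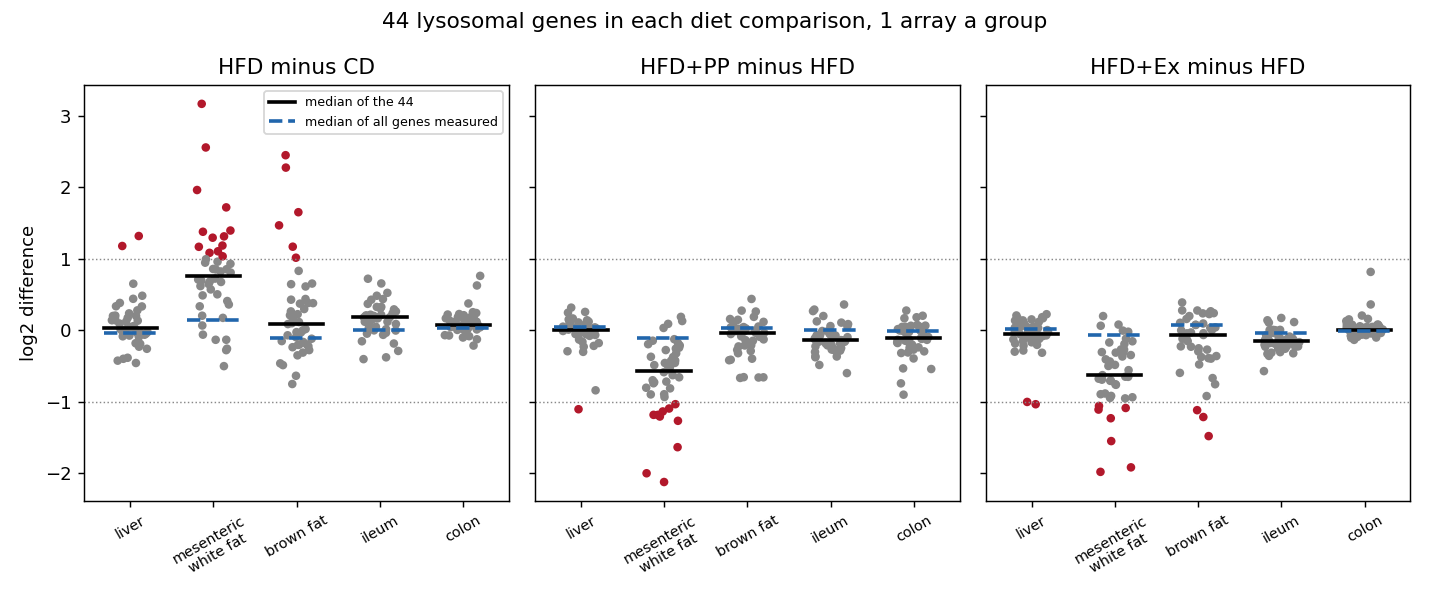
Log2 difference of each of the 44 genes (points; those past 2-fold in red) in HFD minus CD, HFD+PP minus HFD and HFD+Ex minus HFD, by tissue, with 1 array a group; dotted lines mark 2-fold. The median of the 44 (black) lies away from the median of all genes measured (blue) mainly in mesenteric white fat, at 0.76, −0.57 and −0.63 against 0.14, −0.10 and −0.06.

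The proteases included the member with the largest difference. Ctsk, cathepsin K, a collagen-degrading cysteine protease best known from osteoclasts, was at 2.73 on HFD+PP, 2.81 on HFD+Ex, 4.74 on HFD and 1.56 on CD in mesenteric fat. It stood 9.0-fold higher on HFD than on CD (log2 3.17), and lower by 2.00 on HFD+PP and by 1.92 on HFD+Ex against HFD, so both supplement arrays lay between those of HFD and CD. Ctss, cathepsin S, which trims the invariant chain of class II molecules in antigen-presenting cells, was at 5.95 on HFD+PP, 5.90 on HFD+Ex, 7.14 on HFD and 6.10 on CD. Its HFD array was thus the only high one, by 1.03 over CD, with differences of −1.19 for HFD+PP and −1.23 for HFD+Ex. Lgmn, the asparaginyl endopeptidase legumain, was at 4.88 on HFD+PP, 5.01 on HFD+Ex, 6.07 on HFD and 4.76 on CD, which gives 1.31, −1.19 and −1.06 for HFD minus CD, HFD+PP minus HFD and HFD+Ex minus HFD. Ctsl, cathepsin L, was the fourth protease to rise, by 1.19, and lay 0.82 and 0.70 lower on HFD+PP and HFD+Ex than on HFD. The other 8 proteases stayed within 2-fold: from 0.68 to 0.96 for Tpp1, Ctsb, Ctsd, Ctsf and Ctsz, and from −0.26 to 0.07 for Ctsa, Ctsc and Ctsh. The 2 probes of Ctsa disagree, at −0.26 for the brightest and 0.67 for the other. The second probe of Ctsd was past 2-fold in all 3 mesenteric comparisons, at 1.04 for HFD minus CD, −1.19 for HFD+PP minus HFD and −1.22 for HFD+Ex minus HFD, where its brightest gave 0.68, −0.90 and −0.90.

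Among the enzymes of glycans, Gusb, beta-glucuronidase, was at 3.20 on HFD+PP, 3.30 on HFD+Ex, 4.41 on HFD and 3.01 on CD in mesenteric fat. Its differences were 1.40 for HFD minus CD, −1.21 for HFD+PP minus HFD and −1.11 for HFD+Ex minus HFD, each past 2-fold. Hexa, the alpha subunit of beta-hexosaminidase, rose by 1.1 on HFD against CD, with −0.94 on HFD+PP and −0.89 on HFD+Ex against HFD. Arsb, the sulfatase of dermatan sulfate, rose by 1.17 through its brightest probe, but its second probe, also well above background, differed by −0.05, and the 2 probes disagree. Gla, alpha-galactosidase A, was the flattest member of the role, with −0.13 on HFD against CD in this tissue and between −0.13 and 0.19 over all 15 comparisons.

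Lipa, lysosomal acid lipase, which frees fatty acids and cholesterol from engulfed lipid, was at 1.97 on HFD+PP, 2.06 on HFD+Ex, 3.61 on HFD and 1.65 on CD in mesenteric fat. It rose by 1.96 on HFD against CD, a 3.90-fold difference, and fell by 1.64 on HFD+PP and by 1.55 on HFD+Ex against HFD. Npc1 and Npc2, which pass cholesterol out of the lysosome, and Psap, the precursor of the saposins that help sphingolipid enzymes, were 0.99, 0.86 and 0.93 higher on HFD, just inside 2-fold. Ppt1, which removes palmitate from proteins, differed by −0.28.

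Of the membrane proteins, Cd68, macrosialin, a heavily glycosylated protein of macrophage lysosomes, was at 3.70 on HFD+PP, 3.84 on HFD+Ex, 5.83 on HFD and 3.27 on CD. The HFD level was 5.89-fold above CD (log2 2.56), and the 2 supplement arrays were 2.13 and 1.98 below HFD, the largest falls of any member in those comparisons. Laptm5, a lysosomal transmembrane protein of blood-forming and immune cells, ran the other way on HFD, at 2.92 on HFD+PP, 2.96 on HFD+Ex, 3.11 on HFD and 3.62 on CD, which is −0.50 for HFD minus CD and within 2-fold. Its second probe gave −0.45. Lamp1 and Lamp2, the abundant glycoproteins of the lysosomal membrane, Scarb2, the receptor that carries beta-glucocerebrosidase to lysosomes, and the tetraspanin Cd63 were 0.50 to 0.82 higher on HFD, and Mcoln1, a calcium channel of the membrane, 0.20.

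The 4 proton pump subunits had a median difference of 1.19 on HFD against CD. Atp6v0a1, a subunit of the membrane sector, was at 3.97 on HFD+PP, 4.15 on HFD+Ex, 5.24 on HFD and 3.52 on CD, and its differences of 1.72, −1.27 and −1.09 were all past 2-fold. Atp6v1b2, of the ATP-hydrolysing sector, was at −0.02 on HFD+PP, 0.07 on HFD+Ex, 1.02 on HFD and −0.28 on CD. It rose by 1.30 on HFD and fell by 1.04 on HFD+PP, with −0.95 on HFD+Ex. Atp6v1a, whose promoter window is shown above, was at 3.02 on HFD+PP, 3.21 on HFD+Ex, 4.15 on HFD and 3.07 on CD. Its differences were 1.08, −1.14 and −0.94, and its second probe gave 1.1 and −0.89 for the first and second of these. Atp6v1h was 0.62 higher on HFD than on CD. Mitf, one of the 2 transcription factors, was at 1.96 on HFD+PP, 2.10 on HFD+Ex, 3.06 on HFD and 1.68 on CD, which is 1.38 for HFD minus CD and −1.1 and −0.96 for the supplements. The second probe of Mitf gave 1.0, −0.84 and −0.75 for the same comparisons. Tfeb, at −0.52 on HFD+PP, −0.46 on HFD+Ex, −0.34 on HFD and −0.28 on CD, differed by −0.06 on HFD against CD.

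Both supplement comparisons share the HFD array, so their falls are not independent of each other or of the rise on HFD. On HFD+PP against HFD, 10 members fell past 2-fold in mesenteric fat (Cd68, Ctsk, Lipa, Atp6v0a1, Gusb, Lgmn, Ctss, Atp6v1a, Mitf and Atp6v1b2) and none rose, beside 4.41% of 16670 genes that fell and 4.51% that rose, and the median of the 44 was −0.57 against −0.10 over all genes. On HFD+Ex against HFD, 7 fell (the first 7 of these names) and none rose, beside 3.91% of 16643 genes that fell and 3.59% that rose, with a median of −0.63 against −0.06. The 2 supplement arrays lay on 1 slide, and the 44 members differed between them by −0.19 to 0.23 (HFD+Ex minus HFD+PP).

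**Figure D2:**
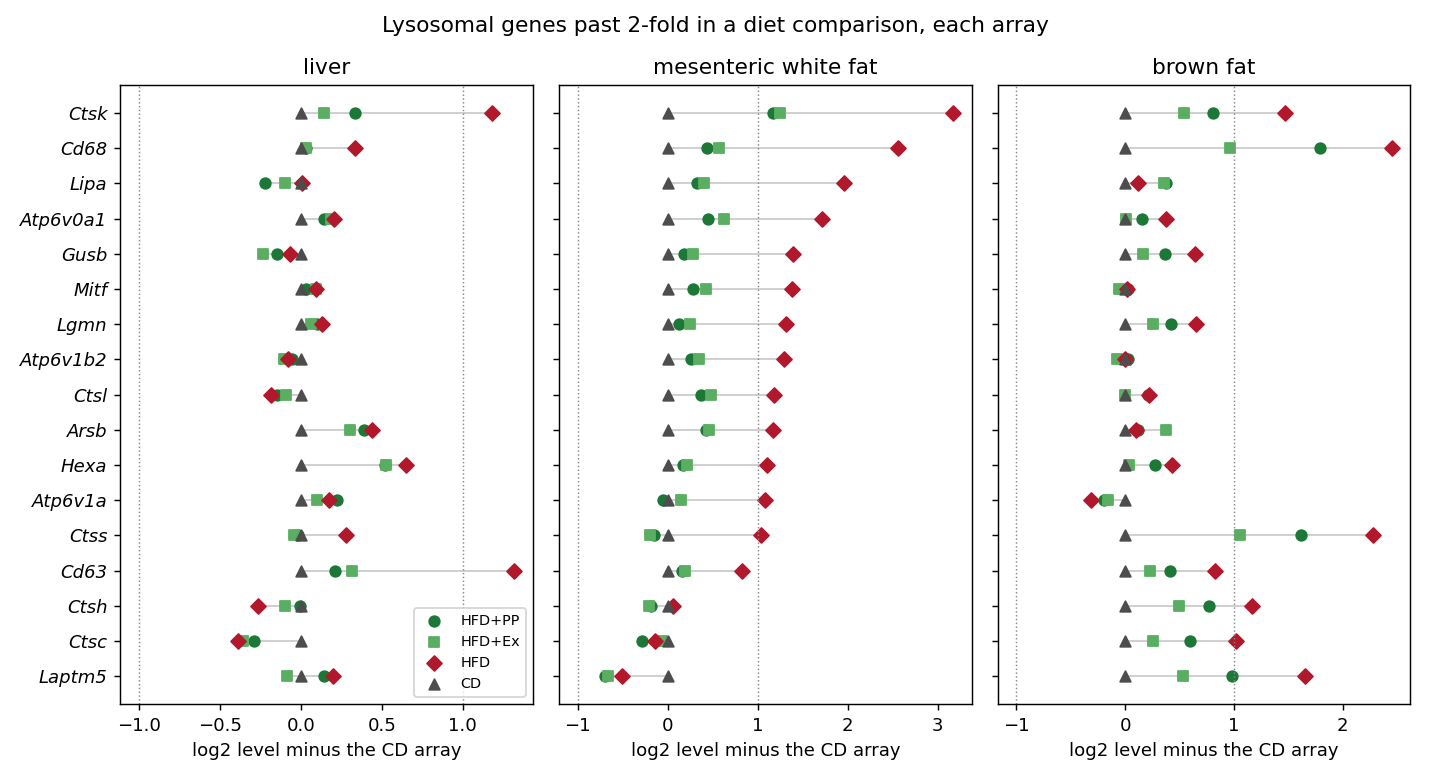
Log2 level minus the CD array (x axis) of the 17 members past 2-fold in some diet comparison, on the HFD+PP, HFD+Ex, HFD and CD arrays of liver, mesenteric white fat and brown fat, 1 point an array; dotted lines mark 2-fold and the x ranges differ between panels. In mesenteric fat the HFD point of Ctsk lies at 3.17 and that of Cd68 at 2.56, with both supplements nearer to CD, while Laptm5 lies at −0.50.

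Markers of other cells moved with these results, and their part in them was not tested. In bulk tissue, more cells of a type and more RNA per cell cannot be told apart. In mesenteric fat 8 of 15 macrophage markers rose on HFD against CD and 1 fell, with summed levels of 397 on HFD and 229 on CD. Against HFD, 8 of the 15 fell on HFD+PP (summed level 232) and 6 on HFD+Ex (234), and no macrophage marker was below background on these arrays. All 7 markers of lipid-associated macrophages rose on HFD, with summed levels of 29.2 on HFD+PP, 33.2 on HFD+Ex, 153 on HFD and 21.0 on CD. The 7 resident macrophage markers ran against this in sum, with 126 on HFD+PP, 107 on HFD+Ex, 29.0 on HFD and 176 on CD, and on HFD against CD 2 of them rose and 2 fell. Against HFD, 2 rose and 1 fell on each supplement. Markers of lymphocytes also ran the other way: all 8 B cell and all 7 T cell markers fell on HFD against CD, with summed T cell levels of 14.1 on HFD and 98.3 on CD. The 9 pancreas markers also fell, and all 8 intestinal epithelium markers rose, with summed levels of 47.0 on HFD and 7.13 on CD that were far below those of ileum and colon. Against HFD, all 9 pancreas, all 8 B cell and 6 of 7 T cell markers rose on each supplement. Of the intestinal markers 3 fell on HFD+PP and 8 on HFD+Ex, with summed levels of 35.8 and 8.30.

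In brown fat 6 of the 44 members rose past 2-fold on HFD against CD and none fell, beside 6.46% of 14955 genes that rose and 2.96% that fell. The median of the 44 was 0.09 against −0.11 over all genes, so most members kept near the rest of the array. Cd68 was at 3.53 on HFD+PP, 2.71 on HFD+Ex, 4.19 on HFD and 1.74 on CD. Ctss was at 4.47 on HFD+PP, 3.92 on HFD+Ex, 5.13 on HFD and 2.85 on CD. These were the members with the largest differences on HFD, 2.45 and 2.28, and in both the HFD+PP array lay between those of HFD and HFD+Ex.

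Laptm5 was at 0.53 on HFD+PP, 0.08 on HFD+Ex, 1.20 on HFD and −0.45 on CD in brown fat, and rose by 1.65 where in mesenteric fat it did not. Its second probe gave 1.39. Ctsk was at 1.61 on HFD+PP, 1.35 on HFD+Ex, 2.28 on HFD and 0.81 on CD, and Ctsh, an aminopeptidase, at 3.66, 3.39, 4.06 and 2.89 in the same order. Ctsc, dipeptidyl peptidase I, which activates serine proteases of granules, was at 0.78 on HFD+PP, 0.45 on HFD+Ex, 1.20 on HFD and 0.19 on CD. Ctsk, Ctsh and Ctsc rose by 1.47, 1.17 and 1.01 on HFD. None of the 12 glycosidases and sulfatases, 5 proteins of lipid breakdown or 4 pump subunits passed 2-fold here, and Lipa and Mitf, which rose in mesenteric fat, differed by 0.11 and 0.02. Galns, a sulfatase of keratan sulfate, Npc2 and Ctsb were lower on HFD than on CD by 0.75, 0.64 and 0.49, within 2-fold.

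On HFD+Ex against HFD, 3 members fell in brown fat (Cd68 by 1.48, Ctss by 1.22 and Laptm5 by 1.12) and none rose, beside 3.43% of 15965 genes that fell and 0.821% that rose. That array lay on another slide. On HFD+PP against HFD no member passed 2-fold, beside 2.2% of 15109 genes that fell and 1.48% that rose, and the same 3 genes differed by −0.66, −0.66 and −0.67. The medians of the 44 were −0.07 on HFD+Ex and −0.04 on HFD+PP, against 0.07 and 0.03 over all genes.

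Macrophage markers moved with the brown fat results too. Of the 15, 13 rose on HFD against CD and none fell, with summed levels of 97.5 on HFD+PP, 75.3 on HFD+Ex, 143 on HFD and 46.9 on CD, where Msr1 was not well above background. On HFD+Ex against HFD 8 of the 15 fell, and on HFD+PP none passed 2-fold. Of 7 lipid-associated macrophage markers 6 rose on HFD, and 2 fell on HFD+PP and 6 on HFD+Ex against HFD, with summed levels of 13.96 on HFD+PP, 8.33 on HFD+Ex, 24.2 on HFD and 4.69 on CD. Of 7 resident macrophage markers 4 rose on HFD, and 2 fell on HFD+PP and 3 on HFD+Ex. Of 8 hepatocyte markers 5 rose on HFD and 5 fell on each supplement, with summed levels of 15.3 on HFD+PP, 19.2 on HFD+Ex, 33.3 on HFD and 15.9 on CD. The part of these markers in the members' differences was not tested.

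**Figure D3:**
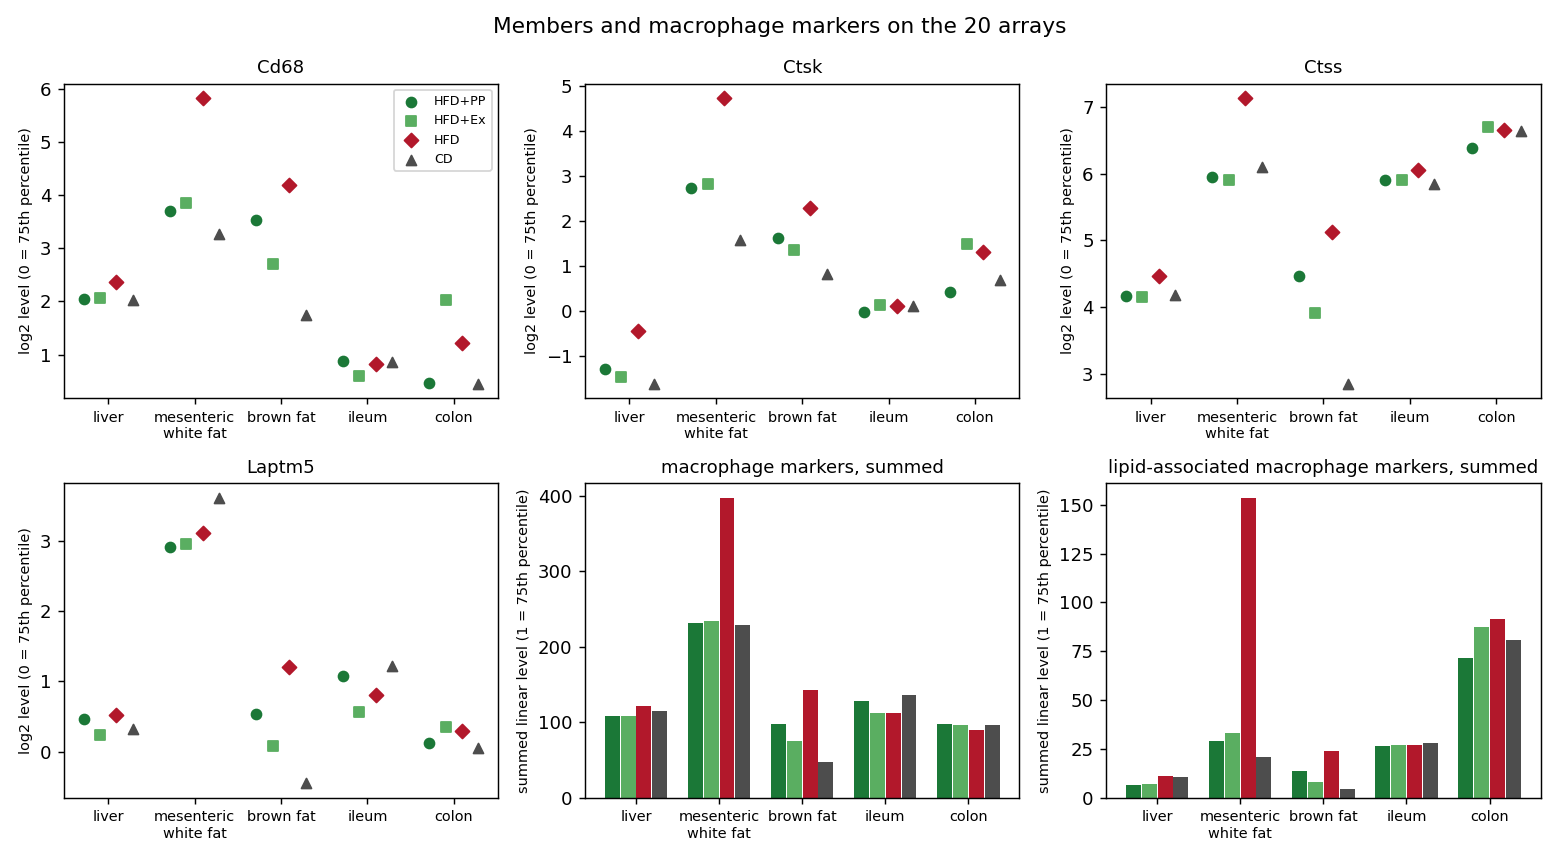
Log2 levels of Cd68, Ctsk, Ctss and Laptm5 (0 is the 75th percentile) and the summed linear levels of the 15 macrophage and 7 lipid-associated macrophage markers (75th percentile as 1) on the HFD+PP, HFD+Ex, HFD and CD arrays of each tissue. The HFD array of mesenteric fat is the highest for Cd68, at 5.83, and for both marker sums, at 397 and 153, whereas Laptm5 is highest on the CD array of that tissue, at 3.62. The lipid-associated sum is 71.5 to 91.5 in colon, where Spp1 is not well above background on any array. The sums are therefore not read as amounts of these cells across tissues.

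Liver showed 2 members past 2-fold on HFD against CD. Cd63, a tetraspanin of late endosomes and lysosomes, was at 2.79 on HFD+PP, 2.89 on HFD+Ex, 3.90 on HFD and 2.58 on CD. Ctsk was at −1.29 on HFD+PP, −1.48 on HFD+Ex, −0.45 on HFD and −1.62 on CD. In both the HFD array stood apart and the other 3 lay close together. The rises of 1.32 and 1.18 on HFD stand beside 3.52% of 15378 genes that rose and 1.29% that fell, and the median of the 44 was 0.03 against −0.04. The count of 2 members thus lay near the share of all genes that rose.

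On HFD+PP against HFD in liver, Cd63 fell by 1.11, beside 1.52% of 15373 genes that fell and 0.585% that rose, while Ctsk differed by −0.84. On HFD+Ex, Ctsk fell by 1.04 and Cd63 by 1.0, beside 1.64% of 14975 genes that fell and 1.42% that rose, and both members were near the 2-fold limit. The medians of the 44 were 0.00 and −0.05, against 0.05 and 0.02 over all genes. None of the 15 macrophage markers passed 2-fold in liver, with summed levels of 109 on HFD+PP, 108 on HFD+Ex, 121 on HFD and 115 on CD. Of the 7 lipid-associated macrophage markers, 6 rose on HFD against CD, with Gpnmb and Mmp12 not well above background on CD, and 4 fell on HFD+PP and 5 on HFD+Ex against HFD. Their summed levels were 6.61 on HFD+PP, 7.24 on HFD+Ex, 11.3 on HFD and 10.4 on CD. All 3 measured white adipocyte markers rose on HFD against CD and 2 fell on each supplement, with summed levels of 4.86 on HFD+PP, 3.18 on HFD+Ex, 15.1 on HFD and 0.185 on CD. Smooth muscle markers rose for 3 of 5 on HFD, and 1 fell on HFD+PP and 3 on HFD+Ex, with summed levels of 8.70, 6.36, 14.6 and 6.96 in the same order. Mesothelium markers rose for 3 of 4 on HFD and 2 fell on each supplement, with 0.52, 0.53, 0.94 and 0.30. What these markers contribute to Cd63 and Ctsk was not tested.

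No member passed 2-fold in ileum or colon. In ileum the shares of all genes past 2-fold were 1.62% higher and 2.28% lower for HFD minus CD, 1.96% and 0.939% for HFD+PP minus HFD, and 1.13% and 0.701% for HFD+Ex minus HFD. In colon they were 0.45% and 1.7%, 1.83% and 1.05%, and 1.14% and 0.402% in the same order. The medians of the 44 in ileum were 0.18, −0.14 and −0.15, against 0.00, 0.00 and −0.03 over all genes, and in colon they were 0.08, −0.11 and 0.01, against 0.03, −0.01 and −0.01. The members nearest to 2-fold in ileum were Lipa, at 0.92 on HFD+PP, 1.19 on HFD+Ex, 1.52 on HFD and 0.80 on CD, and Mcoln1, at 3.40, 3.77, 3.89 and 3.24 in the same order. In colon Cd68 was at 0.47 on HFD+PP, 2.03 on HFD+Ex, 1.21 on HFD and 0.45 on CD, and Ctsk at 0.41, 1.48, 1.32 and 0.69. There the HFD+Ex array was the highest for both, and Cd68 differed by 1.56 between HFD+Ex and HFD+PP.

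The 27 members past 2-fold in none of the 15 comparisons by their brightest probe stayed between −0.92 and 0.99. Among the proteases the ranges over the 15 were −0.26 to 0.20 for Ctsa, −0.72 to 0.95 for Ctsb, −0.90 to 0.68 for Ctsd, −0.54 to 0.96 for Ctsf, −0.92 to 0.85 for Ctsz and −0.49 to 0.72 for Tpp1. Apart from the highest value of Ctsa, in ileum, and the lowest of Ctsf, in colon, these extremes were in mesenteric fat. Among the glycosidases and sulfatases they were −0.13 to 0.19 for Gla, −0.50 to 0.70 for Glb1 (beta-galactosidase), −0.75 to 0.49 for Galns, −0.26 to 0.41 for Arsa, −0.65 to 0.85 for Naglu, −0.63 to 0.65 for Man2b1, −0.52 to 0.71 for Manba, −0.37 to 0.36 for Fuca1 and −0.37 to 0.48 for Neu1. In the lipid group they were −0.81 to 0.93 for Psap, −0.38 to 0.38 for Ppt1, −0.76 to 0.99 for Npc1 and −0.70 to 0.86 for Npc2. The acid phosphatases Acp2 and Acp5 ranged from −0.56 to 0.57 and from −0.46 to 0.25. Of the membrane proteins and the rest, Lamp1 ranged from −0.32 to 0.50, Lamp2 from −0.38 to 0.81, Scarb2 from −0.46 to 0.68, Mcoln1 from −0.49 to 0.65, Atp6v1h from −0.43 to 0.62 and Tfeb from −0.30 to 0.52. For 31 of all 44 members the widest spread over the 4 diets was in mesenteric fat, and for none was it in colon. This was not counted over all genes, which also passed 2-fold most often in mesenteric fat.

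The 72 other lysosomal genes were counted in the same way. In mesenteric fat 8 rose and 1 fell on HFD against CD, beside 9.49% and 8.23% of all genes. The 8 thus lay near the share of all genes that rose. The median of the 72 was 0.55, against 0.14 over all genes. The largest differences were those of Gpnmb, a glycoprotein of melanosomes and lysosomes, at 2.16 on HFD+PP, 2.47 on HFD+Ex, 5.44 on HFD and 0.76 on CD, and of the pump subunit Atp6v0d2, at −0.34, −0.06, 2.68 and −1.18 in the same order. Both genes also stand in the list of lipid-associated macrophage markers. Galc, galactosylceramidase, rose by 1.62 and Grn, progranulin, by 1.24, while the cathepsin Ctso fell by 1.21. On HFD+PP against HFD 4 of the 72 fell and 1 rose, beside 4.41% and 4.51% of all genes (median −0.39 against −0.10). On HFD+Ex 4 fell and none rose, beside 3.91% and 3.59% of all genes (median −0.37 against −0.06). Tcirg1, a pump subunit of osteoclasts and immune cells, rose by 1.02 on HFD and fell by 1.03 on HFD+PP and 1.01 on HFD+Ex.

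In brown fat 4 of the 72 rose on HFD against CD and none fell, beside 6.46% and 2.96% of all genes. Among the 4 were Gpnmb, by 3.44, and Tcirg1, by 1.16. Atp6v0d2, not well above background on CD, was at least 21.5-fold higher. On HFD+PP against HFD 1 fell and none rose, and on HFD+Ex 2 fell and none rose. In liver 3 rose and 1 fell on HFD, beside 3.52% and 1.29% of all genes. Gpnmb, not well above background on CD, was at least 14.6-fold higher there on HFD. In liver 1 of the 72 fell and none rose on each supplement. In ileum 2 rose and none fell on HFD against CD, none passed 2-fold on HFD+PP and 2 fell on HFD+Ex. In colon the counts past 2-fold were 0 on HFD, 0 on HFD+PP and 1 higher on HFD+Ex. The shares of all genes in the remaining comparisons are given with the members above. The counts that rose on HFD in brown fat and liver lay near the shares of all genes.

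Differences between tissues could be tested, with the 4 diet pools as replicates and diet as a block, over 17311 genes with limma. The same 7 mice of a diet gave all 5 tissues, and the spread of a difference includes whatever the diets do unequally in the tissues. That spread, and each SE drawn from it, is 1 value per gene taken over all 5 tissues. The liver, ileum and colon arrays each lay on 1 slide, colon alone on its own, so slide and tissue are largely confounded. A member was called where its tissue differed from the mean of the other 4 by a log2 difference of at least 1 with an adjusted p below 0.05. By this rule 33 of the 44 members differed in some tissue. That count was not made over all genes, of which 18.8% were called higher and 24.7% lower in liver alone. It therefore does not set the members apart from other genes. The 11 called in none were Hexa, Gla, Fuca1, Ppt1, Acp2, Acp5, Mcoln1, Atp6v1h, Atp6v0a1, Atp6v1b2 and Tfeb, which include 3 of the 4 pump subunits and both acid phosphatases. The distance between a member's highest and lowest tissue mean ran from 0.57 for Hexa to 4.37 for Cd63, with a median of 1.97.

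Liver had 13 members higher and 4 lower, beside 18.8% and 24.7% of all genes, and a members' median of 0.38 against 0.00 over all genes. Scaling mattered here: with the authors' values the split was 7 higher and 8 lower (median −0.14 against −0.52 over all genes), and with quantile normalization 7 and 5. Ctsh was at 7.69, 7.60, 7.43 and 7.70 on the liver arrays of HFD+PP, HFD+Ex, HFD and CD, against 2.89 to 5.62 on the 16 arrays of other tissues. It was higher by 2.96 ± 0.13 (SE, n = 4 pools; adjusted p = 4.02e-11, limma). Npc1 was at 2.01 to 2.25 in liver against −1.20 to 0.72 elsewhere (2.59 ± 0.12, adjusted p = 7.59e-11, limma), again with no overlap. Ctsl and Lipa were higher by 2.44 (adjusted p = 1.79e-10, limma) and 2.33 (5.69e-08), and Lamp2 and Arsa by 2.03 and 1.95. Cd63 was the lowest, at 2.58 to 3.90 in liver against 4.54 to 7.49 elsewhere, a difference of −3.42 ± 0.13 (adjusted p = 4.15e-12, limma). Its 4 liver arrays had an SD of 0.59 over the diets. The spread behind this SE and p-value is pooled over all tissues and understates that of Cd63 in liver. Ctsk, Ctss and Npc2 were lower by 2.59, 1.48 and 1.02. All 8 of these highest and lowest kept their call in each of 12 other settings, except Npc2 in 1.

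**Figure D4:**
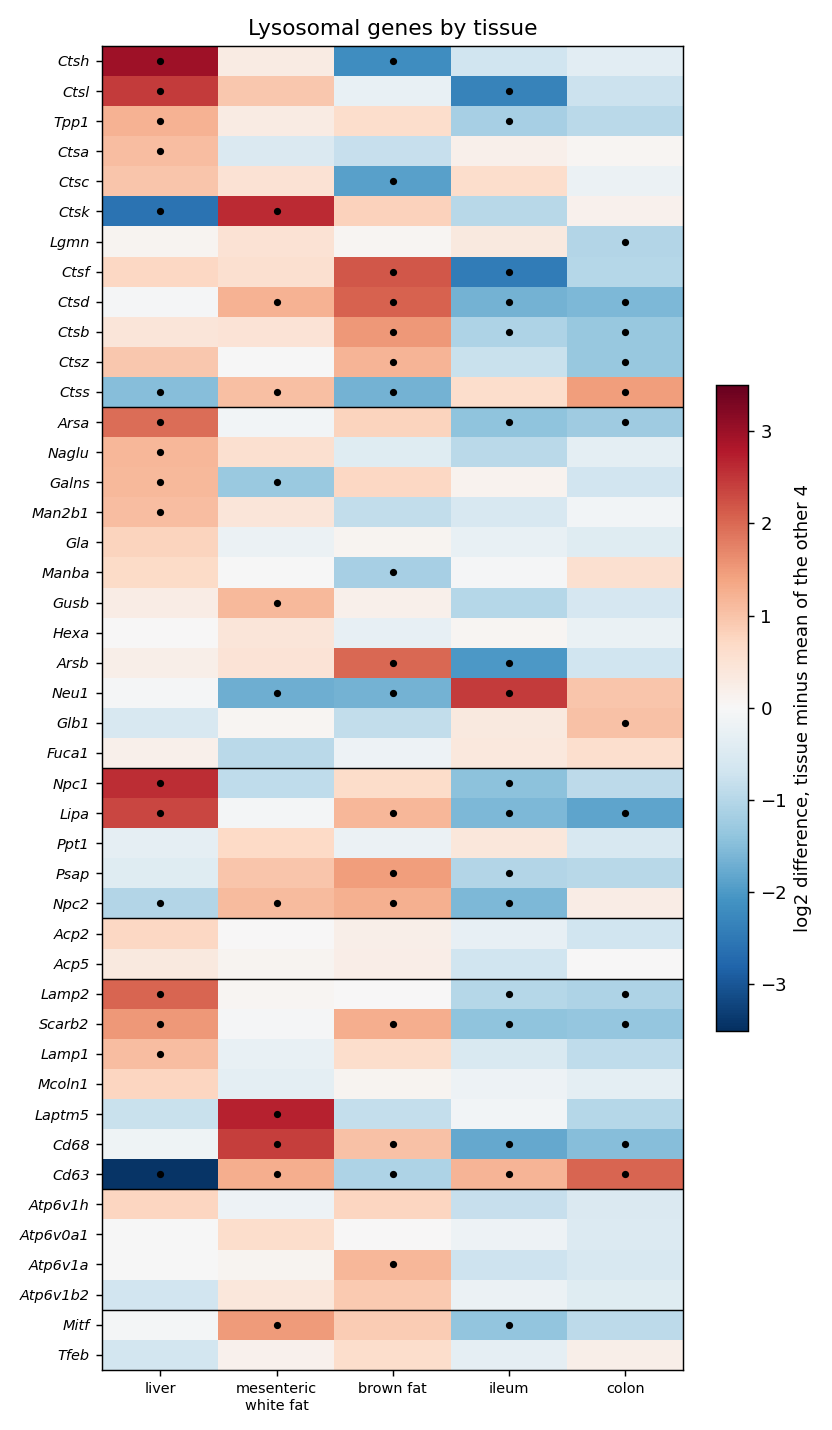
Log2 difference of each member in a tissue minus the mean of the other 4 tissues (colour), with a dot where it passed the test; lines separate the roles, from proteases at the top to transcription factors at the bottom. Ctsh and Npc1 stand out in liver (2.96 and 2.59), Neu1 in ileum (2.45) and Cd63 in colon (2.04), and Cd63 is lowest in liver (−3.42).

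Mesenteric fat had 9 members higher and 2 lower, beside 18.5% and 16% of all genes, with a median of 0.34 against −0.10. The 9 lay near the share of all genes called higher. Laptm5 was at 2.92, 2.96, 3.11 and 3.62 on HFD+PP, HFD+Ex, HFD and CD there, against −0.45 to 1.21 on the other 16 arrays (2.69 ± 0.21, SE, n = 4 pools; adjusted p = 3.02e-08, limma). Ctsk and Cd68 were higher by 2.62 (adjusted p = 1.08e-06, limma) and 2.41 (1.95e-05). Their mesenteric arrays spread widely, with SDs of 1.31 and 1.14 over the 4 diets, and overlapped the other tissues. The spread behind these p-values is pooled over all tissues and understates that of mesenteric fat. Mitf was higher by 1.5. Neu1, the lysosomal sialidase, and Galns were lower by 1.71 (adjusted p = 6.39e-10, limma) and 1.30. Without the HFD pool the counts were 6 higher and 4 lower, so 1 pool decides part of them. The 4 mesenteric pools also differed in pancreas and B cell markers, whose part in these calls was not tested.

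Brown fat had 11 members higher and 6 lower, beside 20.9% and 20.1% of all genes, with a median of 0.22 against 0.08. The 11 lay near the share of all genes called higher. The split of members also turned with scaling, to 5 higher and 10 lower when arrays were scaled to probes above background on all arrays, and to 7 and 10 with the authors' values. Ctsf was at 2.87, 2.92, 2.68 and 2.88 on HFD+PP, HFD+Ex, HFD and CD, against −0.96 to 1.90 elsewhere (2.17 ± 0.13, SE, n = 4 pools; adjusted p = 9.22e-10, limma). Ctsd, the main aspartyl protease of lysosomes, and Ctsb were higher by 2.06 and 1.52, with adjusted p of 1.58e-10 and 3.34e-08 (limma). Arsb was higher by 2.02 through its brightest probe, whereas its second probe was highest in liver, at −1.24, with −2.90 in brown fat. Ctsh was lower by 2.17 (adjusted p = 1.58e-09, limma), at 2.89 to 4.06 against 4.55 to 7.70 elsewhere, and so were Ctsc by 1.90, Ctss by 1.67 and Neu1 by 1.66. Ctsh, Ctsc and Ctss spread widely in brown fat, with SDs of 0.49, 0.44 and 0.96 over the 4 diets. The pooled spread behind their tests understates this. Ctss, at 2.85 to 5.13 in brown fat, overlapped liver, at 4.15 to 4.46.

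Ileum had 2 members higher and 15 lower, beside 16.4% and 17.2% of all genes, with a median of −0.70 against −0.15. Neu1 was at 6.74, 7.12, 7.11 and 6.63 on HFD+PP, HFD+Ex, HFD and CD in ileum, against 3.47 to 5.80 elsewhere (2.45 ± 0.09, SE, n = 4 pools; adjusted p = 1.07e-11, limma). Cd63 was the other, higher by 1.19. Ctsf, Ctsl and Arsb were lower by 2.44, 2.35 and 2.01 (adjusted p = 4.51e-10, 6.05e-10 and 6.70e-09, limma), with ileum arrays below those of every other tissue in all 3. Cd68 was lower by 1.80 and overlapped colon. The lower calls reached each role except acid phosphatases and the pump, with Ctsb, Ctsd and Tpp1 among the proteases, Arsa among the sulfatases, Lipa, Npc1, Npc2 and Psap of the lipid group, Lamp2 and Scarb2 of the membrane and Mitf of the transcription factors. Of these, Lamp2 kept its call in 6 of 12 other settings, Psap in 8, Ctsb in 9 and Tpp1 in 10.

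Colon had 3 members higher and 9 lower, beside 15.8% and 15.2% of all genes, with a median of −0.56 against −0.09. Cd63 was at 7.35, 7.49, 7.47 and 7.33 on HFD+PP, HFD+Ex, HFD and CD, against 2.58 to 7.32 elsewhere (2.04 ± 0.13, SE, n = 4 pools; adjusted p = 2.97e-09, limma). Ctss and Glb1 were higher by 1.46 and 1.03 (adjusted p = 5.70e-05 and 3.10e-07, limma). Lipa and Ctsd were lower by 1.86 and 1.58 (adjusted p = 1.15e-06 and 5.47e-09, limma), and Cd68 and Scarb2 by 1.49 and 1.35. By tissue mean, 20 of the 44 members were highest in liver, 10 in brown fat, 9 in mesenteric fat, 4 in colon and 1 in ileum, and 17 were lowest in ileum. Of the 20 highest in liver, 13 had no overlap with the next tissue, and of the 9 highest in mesenteric fat, 2. These counts by tissue mean were made neither over all genes nor under other scalings. They describe the members' levels and do not set them apart from other genes.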

How the data were processed

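The 20 single-colour Agilent arrays were read from the authors' scanner output. Per the file headers, Agilent Feature Extraction 11.5.1.1 made the deposited processed signal, a background-subtracted intensity for each of 62976 spots. Its log2 was taken, each array's 75th percentile was subtracted, 3671 control spots were left out and spots of a probe were averaged. Of 55681 probes, 28026 were assigned a symbol through RefSeq accessions and 27655 were not, which left 21154 genes, each read through its brightest probe. The authors' deposited series matrix, taken on the log2 scale, was an alternative. Its columns differ from the scanner values by a factor per array, and how that factor was set is not given in the sources used here.

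A diet difference needed 1 or both of its 2 arrays well above background. A dim side was set to the array's lowest signal among probes well above background. Tissues were compared with limma 3.58.1 (R 4.3.3, residual df 12), with genes that were well above background on 4 or more arrays, diet as a block and Benjamini-Hochberg adjustment. P-values cover the spread between 4 pools, not between mice. Tables and figures were made with Python 3.11.15, numpy 2.4.6, pandas 2.3.3 and matplotlib 3.10.9, and the fits were tested on simulated data. The normexp alternative used the median signal. The members, the other lysosomal genes and the marker lists were chosen with earlier results of these data known. Members were named in full where past 2-fold, up to 8 a comparison, and by tissue as the 4 highest and 4 lowest called, and all others by their range. The value of 1 other lysosomal gene is not reported here.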

Additional observations from a re-analysis of the deposited data

Results flagged for a closer look

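Several members went past 2-fold in one tissue and ran the other way, by over 3 SDs of repeat spots, in another under the same diet contrast. Each value rests on 1 array a group, and none of these differences between tissues was tested. The SD of repeat spots, 0.082 for a difference, leaves out labelling, hybridisation and the spread between mice, so it does not show that a value opposite in sign differs from 0. For HFD minus CD, Laptm5 differed by 1.65 in brown fat, against −0.50 in mesenteric fat and −0.41 in ileum. Ctsh differed by 1.17 and Ctsc by 1.01 in brown fat, against −0.26 and −0.39 in liver. Gusb differed by 1.40 in mesenteric fat and −0.29 in ileum, and Atp6v1a by 1.08 in mesenteric fat and −0.31 in brown fat.

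For HFD+PP minus HFD, Lipa differed by −1.64 in mesenteric fat and 0.26 in brown fat. Lgmn differed by −1.19 and Mitf by −1.10 in mesenteric fat, against 0.29 and 0.36 in ileum. The second probe of Mitf gave −0.84 in mesenteric fat, under 2-fold, and 0.06 in ileum. For HFD+Ex minus HFD, Cd68 differed by −1.98 in mesenteric fat and −1.48 in brown fat, against 0.82 in colon. Lipa differed by −1.55 in mesenteric fat and 0.25 in brown fat, just past the limit of 3 SDs as for HFD+PP, and Lgmn by −1.06 in mesenteric fat and 0.36 in colon. The mesenteric and brown fat values of HFD+Ex, and the mesenteric ones of HFD+PP, cross slides.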

How the results depend on the processing

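No direction of a called value was reversed by any setting. Of 210 diet counts under other settings, 207 stayed within 1.5 times the reported count, but most of the 210 set 0 against 0. The settings that change the filter on dim probes could not alter a member's diet value, as every member was well above background throughout. In liver, normexp gave 1 member higher for HFD minus CD and 0 lower for HFD+Ex minus HFD, and quantile normalization gave 1 lower for the second. Members' medians for HFD minus CD became 0.13 in liver (quantile), 0.63 (scaling to probes above background on all arrays) and 0.65 (authors' values) in mesenteric fat, 0.26, 0.27 and 0.36 in brown fat (the same scaling, quantile, authors' values) and 0.077 and 0.075 in ileum (quantile, authors' values). In mesenteric fat those for HFD+PP minus HFD became −0.46 (the same scaling) and −0.47 (authors' values), and that for HFD+Ex minus HFD −0.54 (authors' values). Against the all-gene median of the same setting, the mesenteric medians kept to 0.62 to 0.72, −0.48 to −0.41 and −0.58 to −0.50. Among tissues, higher counts became 7 in liver (authors' values, quantile and the same scaling), 14 in mesenteric fat (quantile) and 7, 7 and 5 in brown fat (authors' values, quantile, the same scaling). Lower counts became 8 in liver, 1 in mesenteric fat and 10 in brown fat with the authors' values, and 10 in brown fat with the same scaling. Tissue medians became −0.14, 0.69, −0.0058, −0.50 and −0.36 in liver, mesenteric fat, brown fat, ileum and colon with the authors' values, 0.14, −0.057, −0.51 and −0.40 in liver, brown fat, ileum and colon with the same scaling, and 0.066, 0.11 and −0.55 in liver, brown fat and ileum with quantile normalization. In liver normexp gave 0.26 and the median over a gene's probes 0.54. Medians over all genes with the authors' values were −0.52, 0.25, −0.15, 0.05 and 0.11 in liver, mesenteric fat, brown fat, ileum and colon. Against the all-gene median of the same setting, over the main and 12 other settings, members kept to 0.11 to 0.54 in liver. They kept to 0.32 to 0.57 in mesenteric fat, −0.05 to 0.19 in brown fat, −0.55 to −0.45 in ileum and −0.51 to −0.28 in colon. Leaving out each diet gave 6 to 11 higher and 2 to 4 lower members in mesenteric fat and medians of 0.22 to 0.28 in brown fat. Leaving out the mesenteric arrays, a setting chosen after seeing the data, gave medians of 0.58 in liver and 0.35 in brown fat. Of all 74 tissue calls of members, 49 held in each of 12 other settings and 25 were lost in 1 or more, with 818 of 888 values keeping the call and none reversed in sign. The fewest, 5 of 12, were for Cd68 in brown fat. Among the up to 4 highest and 4 lowest calls of each tissue, 416 of 420 values kept it; the others were Npc2 in liver without the HFD pool (−0.94), Galns in mesenteric fat with the authors' values (−0.95), Arsb in brown fat over both its probes (0.92) and Glb1 in colon without the HFD+PP pool (0.98). Leaving out the diet block, or adding the slide as a random block, moved no count of members by over 1.5 times. The slide block cannot separate slide from tissue for colon, which lay alone on its slide. For the other tissues it can do so only through the fat arrays, which were spread over slides. Of 308 named diet values, 98 shifted by the SD of repeat spots for a difference (0.082) or more, and 22 came under 2-fold. The authors' values and the scaling to probes above background on all arrays only change a factor per array. They therefore shift all genes of a comparison alike. The cause of the shifts under the other settings was not tested. With 1 array a group, the diet differences have no measure of the spread between mice, and the pooled design leaves none to recover.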
